A study of Mus musculus with 6 samples.

Results

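The endoplasmic reticulum genes described here are 9 genes that fold new secretory and membrane proteins or signal when folding fails: Hspa5, Hsp90b1, Calr, Canx, P4hb, Pdia3, Xbp1, Atf4 and Ddit3. They were found by gene symbol: a probe set counted when the platform annotation gave it exactly 1 symbol and that symbol was in the list. All 9 genes had such a probe set, of 8251 genes represented this way, and together they had 11 of the 12422 probe sets on the array. Where a gene had several, the probe set with the highest mean stands for it. Level is given as the deposited linear intensity, which can be compared between arrays for 1 probe set but not between probe sets.

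Spinal cord RNA was measured on 6 Affymetrix arrays, 1 for each of 3 genotypes at 75 and 110 days of age. Nontransgenic mice (strain B6SJL, labelled as normal mice) were the controls, and WT-SOD1 mice carry an SOD1 transgene without the mutation. The strain label of WT-SOD1 names a B6SJL background at 75 days and is absent at 110 days. G93A-SOD1 mice carry the mutant transgene, with the strain label B6SJL-G93A-SOD1 at 75 days and B6SJL-G93A-SOD1H at 110 days. At 75 days they are described as presymptomatic, and at 110 days as showing tremor and partial paralysis, a model of amyotrophic lateral sclerosis (ALS). No disease is described for WT-SOD1 mice at either age, and their cord and that of nontransgenic mice are together called disease-free. Each array held RNA of 4 cords, and no genotype and age has a second array. The sex of the mice and the promoter that drives the transgene are not given in the sources used here.

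Proteins that enter the secretory pathway are folded in the endoplasmic reticulum by chaperones, which hold unfolded chains, and by oxidoreductases, which form and rearrange disulfide bonds. When unfolded proteins build up, the sensors PERK, IRE1 and ATF6 start the unfolded protein response. IRE1 splices Xbp1 mRNA, ATF6 is cleaved to an active transcription factor, and PERK favours the translation of Atf4, which can induce Ddit3. In SOD1 models of ALS this response has been studied mainly in motor neurons, which are a small share of the cells in whole cord.

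Many chaperone promoters carry the endoplasmic reticulum stress element (ERSE), known as a binding site of ATF6 together with the CCAAT factor NF-Y. The upstream sequences of Hspa5 and Hsp90b1 are shown because both hold such an element and both were among the genes that stood highest in disease-free cord at 110 days. Each is the stretch of 250 bases before the annotated start, from RefSeq (GRCm38.p6), written 5′ to 3′ in the direction of the gene. Capitals mark the fixed ends of each exact match to the ERSE letters, CCAAT and CCACG separated by 9 bases of any kind, or to their reverse complement. Hspa5 lies on the plus strand (chr2:34771840-34772089) and Hsp90b1 on the minus strand (chr10:86705445-86705694).
Hspa5: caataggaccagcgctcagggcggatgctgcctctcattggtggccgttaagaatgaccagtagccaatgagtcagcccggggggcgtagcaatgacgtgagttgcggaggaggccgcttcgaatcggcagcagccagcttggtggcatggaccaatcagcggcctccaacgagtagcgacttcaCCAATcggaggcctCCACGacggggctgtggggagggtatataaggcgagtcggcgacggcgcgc
Hsp90b1: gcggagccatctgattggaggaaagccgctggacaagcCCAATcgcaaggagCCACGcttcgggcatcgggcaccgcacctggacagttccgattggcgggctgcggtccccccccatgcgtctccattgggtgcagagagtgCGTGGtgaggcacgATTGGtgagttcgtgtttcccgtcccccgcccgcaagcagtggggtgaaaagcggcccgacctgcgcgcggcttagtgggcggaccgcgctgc

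Exact matches to these letters, searched on both strands, were found in 4 of the 9 genes. Over the window of 250 bases before to 50 after the start, 39 of 32851 promoters in the table (0.119%) held a match. Each match is written in the direction of the element, 5′ to 3′, with the fixed ends in capitals.
Hspa5, 65 to 47 bases before the start, as the gene: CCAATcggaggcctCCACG
Hsp90b1, 212 to 194 bases before the start, as the gene: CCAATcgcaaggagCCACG
Hsp90b1, 107 to 89 bases before the start, opposite: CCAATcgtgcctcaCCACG
Calr, 162 to 144 bases before the start, opposite: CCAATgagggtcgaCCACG
Canx, 145 to 127 bases before the start, as the gene: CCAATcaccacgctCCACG

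The 4 genes with a match are the 4 chaperones, and the spacer between the fixed ends differed in all 5 matches. No exact match was found in the windows of P4hb, Pdia3, Xbp1, Atf4 and Ddit3, which says only that these letters are not there. Of the 9 windows, 8 held the letters CCAAT and 6 held CCACG on either strand. These short runs, both contained in the ERSE, are also common elsewhere, in 37.4% and 32.8% of all promoters. None of the 9 windows held ERSE-II (ATTGG, 1 base of any kind and CCACG, in 0.0365% of promoters), the unfolded protein response element TGACGTGG (0.676%) or the amino acid response element TGATGNAA (3.97%).

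**Figure D1:**
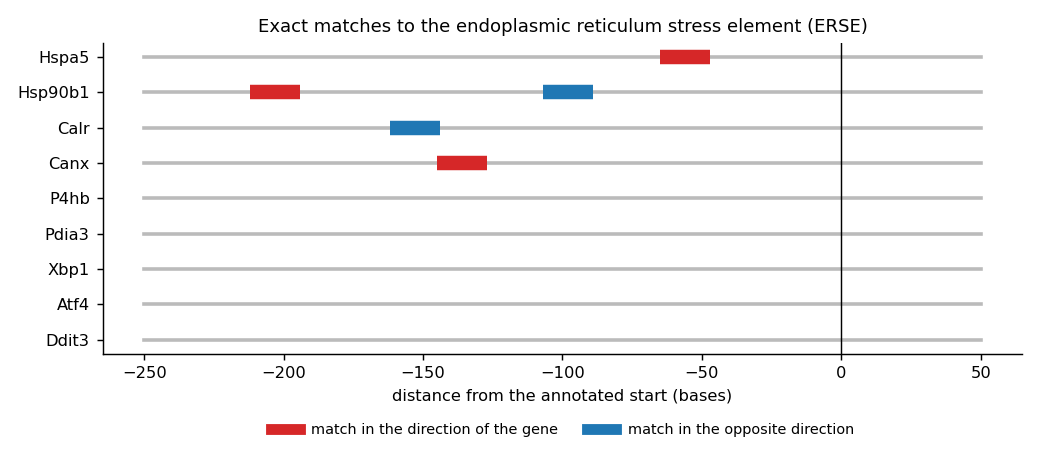
Positions of exact ERSE matches in the RefSeq promoter windows of the 9 genes. The horizontal axis is the distance from the annotated start in bases, each grey line is 1 gene, red boxes are matches in the direction of the gene and blue boxes are matches in the opposite direction. The 5 matches lie between 212 and 47 bases before the start, in Hspa5, Hsp90b1, Calr and Canx.

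Several arrays stood apart in some of the readings that follow. Whether these readings bear on the values of the endoplasmic reticulum genes was not tested. Across the series, array medians lay between 77.7 and 80.9, and 24.6 to 25.9 percent of probe sets on each array were at or under a floor of 31, the 25th percentile of all values, under which values have no order. The ratio of the 5′ to the 3′ actin probe set, a measure of intact RNA, was 0.418 on the nontransgenic 110-day array and 0.501 to 0.592 on the others. The same ratio for Gapdh did not set that array apart (0.811), and ran from 0.671 on the G93A-SOD1 75-day array to 0.926 on the nontransgenic 75-day array. The Sod1 probe set read 1583 to 1906 in the 4 transgenic samples and 1037 and 1498 in nontransgenic cord, so the nontransgenic arrays were lowest. Cerebellar markers (7 of 8 on the array) summed to 5825 on the nontransgenic 75-day array and 6291 on the WT-SOD1 110-day array. On the other 4 arrays they summed to 3240 to 4557. Among them Gabra6 was under the floor in G93A-SOD1 cord, at 25.2 at 75 days and 21.3 at 110 days. Pituitary markers (7 of 8, Fshb at the floor) summed to 11419 on the WT-SOD1 75-day array and to 706 to 827 elsewhere.

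Hspa5 encodes BiP, the main Hsp70 chaperone of the endoplasmic reticulum and the protein that keeps the stress sensors inactive. Its intensity (probe set 101955_at) was 349 in nontransgenic, 333 in WT-SOD1 and 327 in G93A-SOD1 cord at 75 days. At 110 days it was 573 in nontransgenic, 666 in WT-SOD1 and 366 in G93A-SOD1 cord. The nontransgenic and WT-SOD1 arrays at 110 days stood above all 4 others, and the G93A-SOD1 array at 110 days lay close to the 3 arrays at 75 days. From 75 to 110 days the level in nontransgenic cord was 1.64-fold and in WT-SOD1 cord 2.0-fold, compared with 1.12-fold in G93A-SOD1 cord.

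Hsp90b1 encodes GRP94, the Hsp90 chaperone of the same compartment. Its intensity (160499_at) at 75 days was 496 in nontransgenic, 460 in WT-SOD1 and 565 in G93A-SOD1 cord. In the older mice it was 581 in nontransgenic, 718 in WT-SOD1 and 505 in G93A-SOD1 cord. As for Hspa5, the WT-SOD1 array at 110 days was highest and the nontransgenic array at 110 days second. Here the G93A-SOD1 array was above both other genotypes at 75 days and below both at 110 days.

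Calnexin (Canx) and calreticulin (Calr) are the lectin chaperones that bind glycoproteins during folding. Canx (94886_at) read 378 in nontransgenic, 380 in WT-SOD1 and 375 in G93A-SOD1 cord at 75 days. The arrays at 110 days read 344, 371 and 360 in the same order of genotypes, so the 6 arrays spanned only 1.1-fold. A second Canx probe set (160180_at) read between 61.1 and 75.4 on 5 arrays and 112 in nontransgenic cord at 110 days. The 2 probe sets thus disagreed on that array. The only Calr probe set (93523_at) read between 13.5 and 17.3 on all 6 arrays, under the floor. The level of Calr could therefore not be read from this probe set, and no fold is given for this gene.

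P4hb encodes protein disulfide isomerase, and Pdia3 encodes ERp57, which works on glycoproteins bound by calnexin and calreticulin. P4hb (161926_r_at) read 1303 in nontransgenic, 1248 in WT-SOD1 and 1306 in G93A-SOD1 cord at 75 days. At 110 days it read 1127, 1293 and 1224 in the same order, a span of 1.16-fold with no separation of ages or genotypes. Probe sets with the suffix _r_at can cross-hybridise, and the other P4hb probe set (93108_at) read only 58.9 to 70.6 and was too dim to be tested.

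Pdia3 (101060_at) read 142 in nontransgenic, 129 in WT-SOD1 and 117 in G93A-SOD1 cord at 75 days. The values at 110 days were 226 in nontransgenic, 200 in WT-SOD1 and 186 in G93A-SOD1 cord. All 3 arrays at 110 days were above all 3 arrays at 75 days, and the order of the genotypes was the same at both ages. The ratio of 110 to 75 days was 1.59-fold in nontransgenic, 1.54-fold in WT-SOD1 and 1.59-fold in G93A-SOD1 cord. For Pdia3 the diseased cord thus had a ratio near that of the controls.

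Xbp1 encodes the transcription factor made active by IRE1 splicing. The probe set cannot be read as a measure of splicing, since the array gives 1 value for all Xbp1 mRNA it binds. Xbp1 (94821_at) read 141 in nontransgenic, 127 in WT-SOD1 and 122 in G93A-SOD1 cord at 75 days. At 110 days it read 179 in nontransgenic, 236 in WT-SOD1 and 132 in G93A-SOD1 cord. The order of the arrays was close to that of Hspa5: WT-SOD1 at 110 days first, nontransgenic at 110 days second, and G93A-SOD1 at 110 days between the arrays of 75 days.

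Atf4, the transcription factor of the PERK branch, is controlled largely at translation, which RNA levels do not show. Its intensity (100599_at) was 571 in nontransgenic, 632 in WT-SOD1 and 566 in G93A-SOD1 cord at 75 days. The 110-day values were 660, 592 and 631 in the same order. Neither the ages nor the genotypes separated, and the 6 arrays spanned 1.17-fold.

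Ddit3 encodes CHOP, a transcription factor linked to cell death after prolonged stress. Its intensity (101429_at) at 75 days was 127 in nontransgenic, 122 in WT-SOD1 and 126 in G93A-SOD1 cord. At 110 days it was 123 in nontransgenic, 133 in WT-SOD1 and 176 in G93A-SOD1 cord. The G93A-SOD1 array at 110 days stood alone above the other 5, which lay between 122 and 133. Ddit3 was the only gene of the 8 above the floor whose G93A-SOD1 value at 110 days exceeded all 4 arrays of disease-free cord. That position was held by 16.9% of all tested probe sets.

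**Figure D2:**
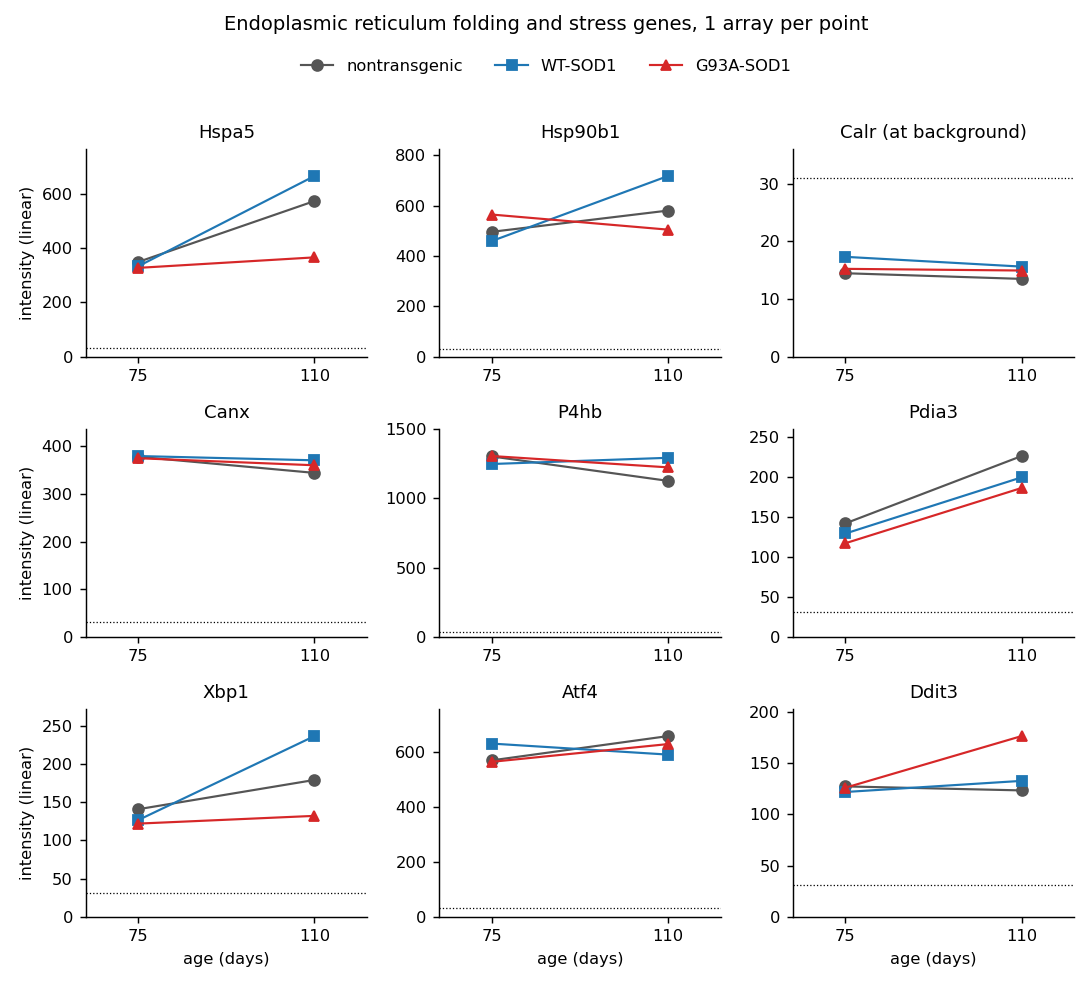
Linear intensity of the 9 genes against age in days, 1 panel per gene and 1 array (RNA of 4 cords) per point, with lines joining the ages of a genotype. The dotted line is the floor of 31, and no error bars are drawn because each point is 1 array. Hspa5 reads 573 and 666 in the disease-free arrays at 110 days against 366 in G93A-SOD1 cord, Ddit3 stands at 176 in G93A-SOD1 cord at 110 days, and Calr lies under the floor on all 6 arrays.

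Differences were tested with limma on log2 values after low values had been raised to the floor. The nontransgenic and WT-SOD1 arrays of an age served together as disease-free cord, since no genotype has a replicate. The p-values therefore rest on how far arrays of 2 genotypes differ, not animals of 1 group, and the lone G93A-SOD1 array of an age is assumed to vary like them. A gene was called when its Benjamini-Hochberg adjusted p over all 6737 tested probe sets was under 0.05. Of the 9 genes, 8 passed the filter on low values (an intensity over 79.7, the median of all values, on at least 1 array), each of them on all 6 arrays. In bulk RNA, fewer cells of a type and less RNA per cell cannot be told apart.

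Disease-free cord at 110 days was first set against disease-free cord at 75 days, the comparison of age without disease. None of the 8 genes was called, and limma called 1 probe set in all (0.0148%). At an unadjusted p under 0.05, 4 of the 8 genes were higher at 110 days, Hspa5, Hsp90b1, Pdia3 and Xbp1, as were 172 of all tested probe sets (2.55%). For Hspa5 the log2 difference was 0.86 ± 0.12 (SE), 1.81-fold, with an adjusted p of 0.367. Among the 6737 tested probe sets its difference was the 6th highest, and its p-value was the 3rd smallest. Pdia3 had 0.65 ± 0.12 (adjusted p = 0.838) and was 12th highest, and Xbp1 had 0.62 ± 0.16 (adjusted p = 0.998) and was 13th highest. Hsp90b1 stood 63rd, at 0.43 ± 0.14 (adjusted p = 0.998). The other members were near 0, with -0.08 ± 0.11 for Canx, -0.08 ± 0.12 for P4hb, 0.06 ± 0.12 for Atf4 and 0.04 ± 0.11 for Ddit3.

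The median over the 8 genes was 0.25, against -0.004 over all tested probe sets, of which the middle 90 percent ran from -0.18 to 0.26. Both disease-free arrays at 110 days exceeded both disease-free arrays at 75 days for the same 4 genes, a pattern seen in 15.2% of all tested probe sets. For these 4 genes they exceeded the G93A-SOD1 arrays as well, and thus all 4 other arrays, as did 8.82% of all tested probe sets. Only Canx went the other way, with both disease-free arrays at 110 days below both at 75 days (14.0%). The second Canx probe set had a difference of the opposite sign, 0.33 ± 0.20.

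Spike-in level and cell or tissue markers were read beside these 4 genes. Among the sums given above, that of cerebellar markers was highest on the WT-SOD1 110-day array (6291) and next on the nontransgenic 75-day array (5825). Its part in the age difference was not tested. The bacterial spike-in controls, RNAs added in the laboratory, averaged 1590 on the WT-SOD1 array at 110 days and 1198 on the nontransgenic array at 75 days, against 645 to 850 on the other 4. The array with the highest spike-in level was thus also the highest for Hspa5, Hsp90b1 and Xbp1, but not for Pdia3. The nontransgenic 75-day array had the second highest spike-in level, and its values of all 4 genes lay below both disease-free arrays at 110 days. The part of the spike-in level in these values was not tested beyond the fit that follows. With the spike-in level as a term in the fit, the age difference was 0.80 for Hspa5 (adjusted p = 0.0904), 0.66 for Pdia3, 0.51 for Xbp1 and 0.35 for Hsp90b1. With each disease-free array left out in turn, the difference ran from 0.75 to 0.96 for Hspa5, 0.56 to 0.74 for Pdia3, 0.42 to 0.82 for Xbp1 and 0.28 to 0.59 for Hsp90b1. Across all alternatives the adjusted p of Hspa5 ran from 0.0532 to 1.00. The summed level of neuron markers (7 of 8 on the array, none at the floor) was highest on both disease-free arrays at 110 days. The sums there were 9561 and 8816, against 7582 to 8167 at 75 days. In nontransgenic cord all of these markers but Syt1 were higher at 110 days. In WT-SOD1 cord Snap25 (2712 to 3297), Nefh and Nefm were higher, and Eno2, Nefl, Stmn2 and Syt1 were lower. The part of neuron content in the age difference was not tested. Markers of plasma cells, which are rich in secretory chaperones, and of B cells (6 of 9 on the array) summed to between 615 and 736 on all 6 arrays. Jchain was at the floor throughout, and Cd79b was under it on all but the G93A-SOD1 75-day array. The sum therefore says little about plasma cells.

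**Figure D3:**
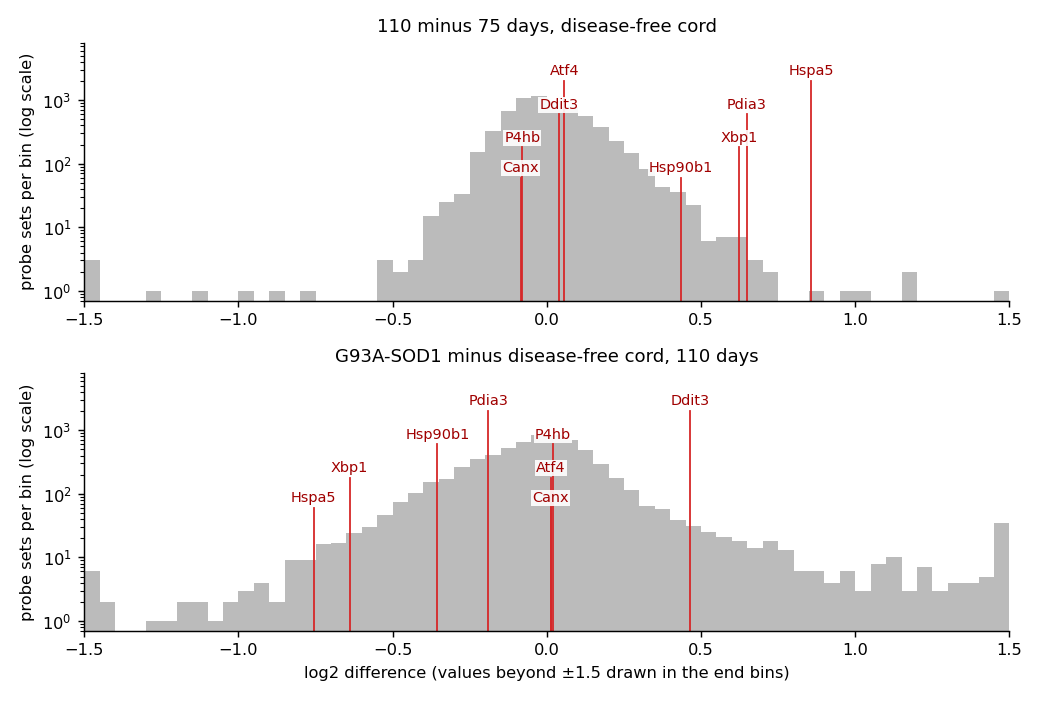
Log2 differences of all 6737 tested probe sets (grey bars, counts on a log axis) with the 8 tested genes as red lines, for 110 against 75 days in disease-free cord (top) and for G93A-SOD1 against disease-free cord at 110 days (bottom). Values beyond the axis are drawn in the end bins. In the top panel Hspa5 stands at 0.86 and Pdia3, Xbp1 and Hsp90b1 between 0.43 and 0.65, and in the bottom panel Hspa5 and Xbp1 stand at -0.76 and -0.64 and Ddit3 at 0.46.

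G93A-SOD1 cord was then compared with disease-free cord at 110 days, the age of overt disease. None of the 8 genes was called, against 102 of all tested probe sets (1.51%), 93 of them higher. At an unadjusted p under 0.05, 3 of the 8 genes differed, against 693 of all tested probe sets (10.3%). These were Hspa5 and Xbp1 on the lower side (5.61% of all tested probe sets) and Ddit3 on the higher side (4.68%). This comparison shares the 110-day disease-free arrays with the comparison of ages, so a high value on those arrays enters both.

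Hspa5 had a log2 difference of -0.76 ± 0.15, 1.69-fold lower in G93A-SOD1 cord, with an adjusted p of 0.0745. Only 41 of the 6737 tested probe sets had a lower difference. For Xbp1 the difference was -0.64 ± 0.19, 1.56-fold lower, with an adjusted p of 0.247. For Ddit3 it was 0.46 ± 0.14, 1.38-fold higher, with an adjusted p of 0.242. Hsp90b1 had -0.35 ± 0.17 (adjusted p = 0.546) and Pdia3 had -0.19 ± 0.15 (adjusted p = 0.826). Canx (0.01 ± 0.13), Atf4 (0.01 ± 0.15) and P4hb (0.02 ± 0.15) differed by less than their standard errors.

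The G93A-SOD1 value lay below both disease-free values at 110 days for Hspa5, Hsp90b1, Pdia3 and Xbp1, 4 of the 8 genes, as it did for 35.3% of all tested probe sets. It lay above both for Ddit3, as it did for 25.6%. For none of the 8 was it below all 4 disease-free arrays (27.0% of all tested probe sets), and for Hspa5, Hsp90b1, Pdia3 and Xbp1 at least 1 disease-free array at 75 days read lower. The median over the 8 genes was -0.09, against -0.02 over all tested probe sets.

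When a disease-free 110-day array was left out, and only then, 3 genes were called, Hspa5 in either case. Without the nontransgenic 110-day array, Hspa5 (-0.86, adjusted p = 0.0118) and Xbp1 (-0.84, adjusted p = 0.0175) were called. Without the WT-SOD1 110-day array, Hspa5 (-0.65, adjusted p = 0.0232) and Ddit3 (0.52, adjusted p = 0.0464) were called. Hsp90b1 ran from -0.51 to -0.20 and Pdia3 from -0.28 to -0.10 in these fits. The spread in them comes from the 75-day disease-free arrays alone, and the count of called probe sets was then 194 and 591. Over all alternatives the adjusted p ran from 0.0118 to 1.00 for Hspa5, from 0.0175 to 1.00 for Xbp1 and from 0.0464 to 0.574 for Ddit3. With only nontransgenic arrays of both ages as controls, the difference was -0.29 for Hspa5, -0.27 for Xbp1, -0.09 for Hsp90b1 and 0.49 for Ddit3. That control mean includes the 75-day array, which was low for the first 3 of these genes.

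Cell and tissue markers also differed on the G93A-SOD1 110-day array. The neuron markers summed to 6426 in G93A-SOD1 cord at 110 days, the lowest of the 6 arrays, though Nefl and Syt1 were lowest in G93A-SOD1 cord at 75 days. Hspa5 (366) and Xbp1 (132) read lower there than in disease-free cord at 110 days. The arrays at 75 days had higher neuron sums (7582 to 8167), yet lower Hspa5 (327 to 349) and Xbp1 of 122 to 141. Microglia and macrophage markers (10 of 10 on the array, none at the floor) summed to 6845 on the G93A-SOD1 110-day array. They summed to 1577 to 1866 on the other 5 arrays, where Ddit3 was lower. Astrocyte markers (4 of 6 on the array, none at the floor) summed to 7032 on the G93A-SOD1 110-day array, against 3517 to 4794 on the others. Gfap, Aqp4 and Slc1a2 were highest on that array, but S100b, at 1100, was lowest. On the same array cerebellar markers summed to 3240, the lowest of the 6 arrays, against 4557 in nontransgenic and 6291 in WT-SOD1 cord at 110 days. The part of cell or tissue composition in the values of Hspa5, Xbp1 and Ddit3 was not tested. Of the motor neuron markers 3 of 6 were on the array, and Isl1 was at the floor throughout.

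At 75 days, before symptoms, no probe set was called by limma (0.0%), and 664 (9.86%) had an unadjusted p under 0.05. None of the 8 genes was among the latter. The largest difference was that of Hsp90b1, 0.24 ± 0.17 (adjusted p = 0.659), followed by Pdia3 with -0.21 ± 0.15 (adjusted p = 0.664) and Xbp1 with -0.13 ± 0.19 (adjusted p = 0.849). Hspa5 had -0.06 ± 0.15, Atf4 -0.09 ± 0.15, P4hb 0.03 ± 0.15, Ddit3 0.02 ± 0.14 and Canx -0.01 ± 0.13. The G93A-SOD1 value was below both disease-free values for 5 of the 8 genes (46.8% of all tested probe sets) and above both for Hsp90b1 and P4hb (32.2%). The median over the 8 genes and that over all tested probe sets were both -0.04.

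The change of the G93A-SOD1 difference from 75 to 110 days was tested directly. Limma called 28 probe sets (0.416%) and none of the 8 genes. Hspa5 (-0.70 ± 0.21, adjusted p = 0.560) and Hsp90b1 (-0.60 ± 0.24, adjusted p = 0.758) had an unadjusted p under 0.05, as had 420 of all tested probe sets (6.23%), 2.05% with the same sign as these genes. Xbp1 had -0.51 ± 0.27 (adjusted p = 0.915) and Ddit3 had 0.45 ± 0.19 (adjusted p = 0.794). Without the WT-SOD1 110-day array the change for Xbp1 was -0.31, and with each disease-free array left out in turn it ran down to -0.71. The same ranges were -0.80 to -0.59 for Hspa5, -0.75 to -0.44 for Hsp90b1 and 0.39 to 0.50 for Ddit3. For Pdia3 the change was 0.02 ± 0.21, for Atf4 0.10 ± 0.21, for Canx 0.03 ± 0.19 and for P4hb -0.01 ± 0.21. A lower G93A-SOD1 difference at the later age was thus not established for any of these genes.

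**Figure D4:**
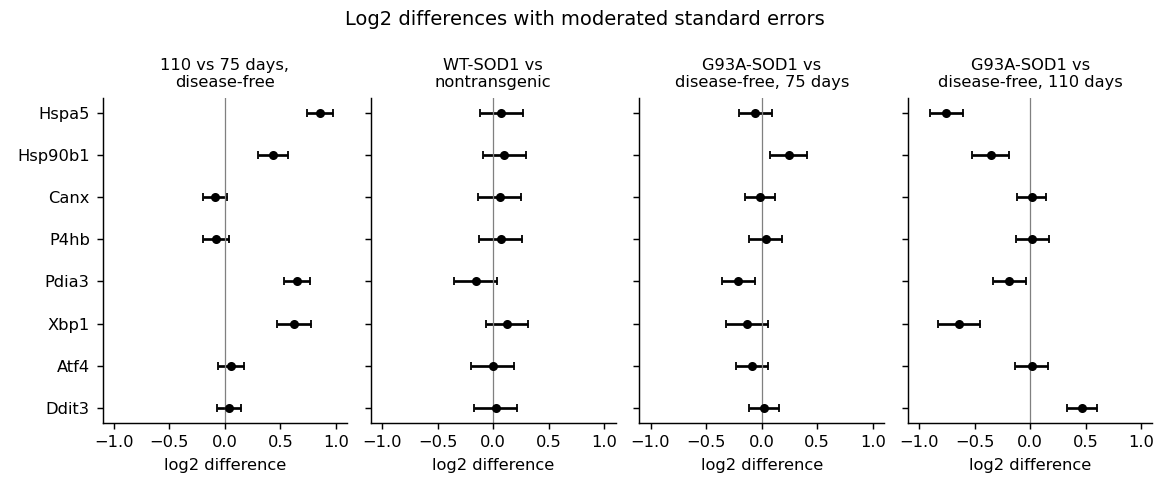
Log2 differences (points) with moderated standard errors (bars) of the 8 tested genes in 4 comparisons, in the order disease-free 110 against 75 days, WT-SOD1 against nontransgenic, G93A-SOD1 against disease-free at 75 days and the same at 110 days. None of the differences passed the adjusted threshold. Hspa5 runs from 0.86 for age to -0.76 for G93A-SOD1 at 110 days, and these comparisons share the disease-free 110-day arrays.

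WT-SOD1 cord was compared with nontransgenic cord over the 4 disease-free arrays, allowing for age. Limma called 7 probe sets (0.104%) and none of the 8 genes, and none had an unadjusted p under 0.05 (79 of all tested probe sets, 1.17%). The differences ran from -0.16 for Pdia3 to 0.12 for Xbp1, each with a standard error of 0.193, which is pooled over all probe sets. Canx was higher in WT-SOD1 cord at both ages (18.4% of all tested probe sets), though at 75 days only by 380 against 378. Pdia3 was lower at both ages (15.3%). The second Canx probe set had a difference of the opposite sign, -0.28 ± 0.19. For Xbp1, WT-SOD1 over nontransgenic was 0.899-fold at 75 days and 1.32-fold at 110 days, and for Hspa5 it was 0.955-fold and 1.16-fold.

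The 8 genes did not vary together as a block. Over the 6 arrays the log2 levels of Hspa5 had a Pearson correlation of 0.97 with Xbp1, 0.84 with Hsp90b1 and 0.83 with Pdia3. With Atf4 it was 0.30, with Ddit3 -0.10, with P4hb -0.37 and with Canx -0.54. Atf4 and P4hb ran opposite to each other (-0.91), and Canx ran with P4hb (0.90). Yet each of these probe sets spanned at most 1.17-fold. On the nontransgenic 110-day array Canx and P4hb were lowest and Atf4 highest, but the second Canx probe set was highest. The correlations are descriptions over 6 arrays that share groups and array properties, without a test.

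By the same measure, the 3 genes closest to Hspa5 among 5198 others were Ndufa3, Hspe1 and Higd1a, with correlations of 0.99, 0.98 and 0.97. Ndufa3, a subunit of respiratory complex I, read 613, 619 and 623 at 75 days and 726, 792 and 625 at 110 days in nontransgenic, WT-SOD1 and G93A-SOD1 cord. Its probe set carries the suffix _f_at and can cross-hybridise. Hspe1, the small mitochondrial chaperonin, read 318, 340 and 324 at 75 days and 438, 464 and 349 at 110 days. Higd1a, a mitochondrial inner membrane protein, read 80.2, 78.6 and 77.5 at 75 days and 85.6, 89.4 and 81.5 at 110 days. In all, 13 genes had a correlation over 0.95 with Hspa5.

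The wider pathway was read from 7 lists with 148 genes, of which 116 had a probe set and 86 were tested. At 110 days limma called 2 of the 86 in G93A-SOD1 cord, both higher (1.38% of all tested probe sets were called higher), and none lower. Both passed the filter on low values only through the G93A-SOD1 110-day array, where they were high, so the count says nothing about the pathway. The median over the 86 genes was 0.03, against -0.02 over all tested probe sets, and 50 of the 86 were above 0, against 44.9% of all tested probe sets. In the other 4 comparisons none of the 86 was called. For 7 of the 86 (8.14%) both disease-free arrays at 110 days exceeded all 4 other arrays, near the 8.82% of all tested probe sets, so the pattern of Hspa5, Hsp90b1, Pdia3 and Xbp1 was not common in the pathway at large.

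The 2 genes called at 110 days are in the list of 18 tested targets of the PERK and Atf4 branch. Nupr1, a stress-induced chromatin protein, read between 42.9 and 58.3 on 5 arrays and 155 in G93A-SOD1 cord at 110 days, a log2 difference of 1.52 ± 0.16 (adjusted p = 0.00600). Cebpb, a transcription factor that pairs with CHOP and is also active in inflammation, read 47.1 to 62.2 on 5 arrays and 92.3 there, a difference of 0.86 ± 0.13 (adjusted p = 0.0262). The choice of tested probe sets thus favoured these differences, and no other gene of the list was called. Without the filter the differences were the same, 1.52 and 0.86, but neither was called (adjusted p = 0.276 and 0.213), in a fit with 0.409 prior degrees of freedom instead of 5.13, and over all alternatives the adjusted p ran from 5.98e-11 to 0.276 for Nupr1 and from 0.00160 to 0.213 for Cebpb. The lowest of this list was Ddit4, an inhibitor of mTORC1, at -0.34 ± 0.14 (adjusted p = 0.461), and the list's median was 0.04. Like Ddit3, both called genes were highest on the array with the highest microglial marker sum, and the part of that cell type was not tested.

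Among 6 tested stress sensors and transducers the median was -0.04. Nfe2l2, the antioxidant transcription factor NRF2, was highest at 0.72 ± 0.16 (adjusted p = 0.106), and Mbtps1, the protease that cleaves ATF6, was lowest at -0.20 ± 0.14. The 12 tested chaperones and cochaperones outside the 9 genes had a median of 0.14. They ran from -0.31 ± 0.14 for the prolyl isomerase Fkbp2 to 0.60 ± 0.14 for its relative Fkbp9 (adjusted p = 0.135). For the 9 tested oxidoreductases the median was 0.03, with Pdia6 lowest (-0.24 ± 0.20) and Txndc5 highest (0.12 ± 0.16). Without the WT-SOD1 110-day array these were -0.015 and 0.028, and without the nontransgenic 110-day array -0.47 and 0.20.

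Of 11 tested genes of endoplasmic reticulum associated degradation, Herpud1 was lowest (-0.37 ± 0.13, adjusted p = 0.371) and Edem2 highest (0.45 ± 0.13, adjusted p = 0.247), with a median of -0.03. Herpud1, a scaffold of the degradation complex, read 325 and 310 in disease-free cord at 110 days and 246 to 276 on the other 4 arrays, and both G93A-SOD1 arrays were lowest, at 246. The 26 tested genes of the translocon, glycosylation and transport had a median of 0.01, from -0.33 ± 0.15 for Prkcsh, a subunit of glucosidase II, to 0.25 ± 0.15 for Serp1. The 4 tested genes of the cell death list had a median of 0.09, from 0.02 ± 0.16 for Bak1 to 0.18 ± 0.15 for Bcl2. With 1 disease-free array left out, Bak1 ran from -0.10 to 0.14 and Bcl2 from 0.07 to 0.29. No gene of these 6 lists was called with all arrays. Fkbp9, Nfe2l2 and Edem2 passed the threshold in some fits with fewer arrays, in which more of all tested probe sets were called too. Without the nontransgenic 110-day array their differences were 0.66, 0.63 and 0.40. Without the WT-SOD1 110-day array they were 0.53, 0.80 and 0.50. With nontransgenic controls only, Nfe2l2 had 0.82 (adjusted p = 0.0104), in a limma fit that called 183 of all tested probe sets. Over all alternatives the adjusted p ran up to 0.408 for Fkbp9, 0.516 for Nfe2l2 and 0.616 for Edem2.

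**Figure D5:**
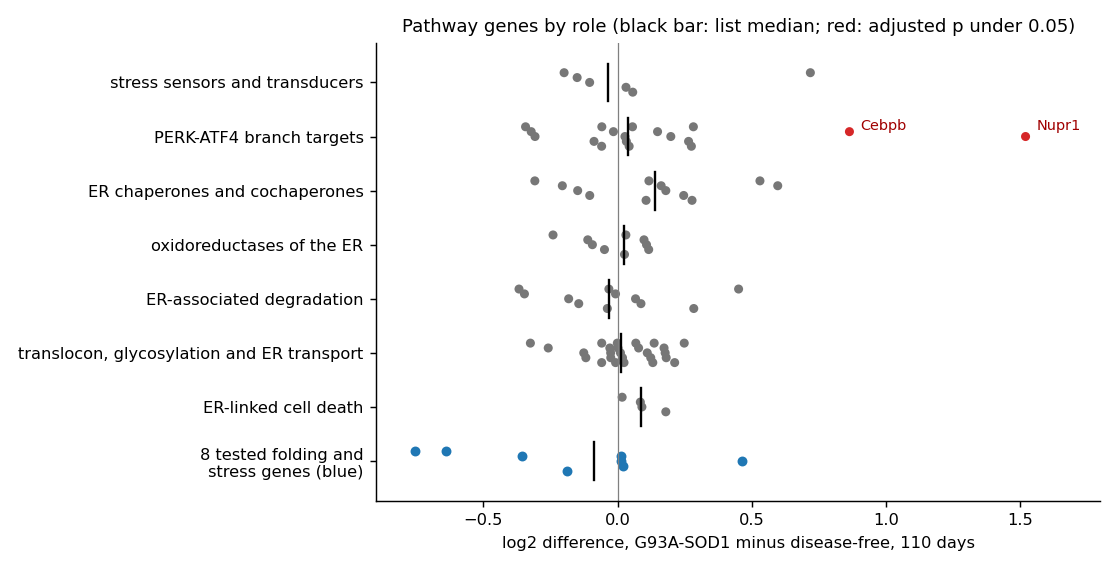
Log2 difference of G93A-SOD1 against disease-free cord at 110 days for the 86 tested pathway genes in 7 lists, 1 point per gene, with the 8 tested folding and stress genes in blue in the lowest row. Black bars are medians and red points are genes with an adjusted p under 0.05. The red points are Nupr1 (1.52) and Cebpb (0.86), which passed the filter only through the G93A-SOD1 110-day array, and the medians of the lists lie between -0.04 and 0.14.

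The ERSE matches were also set beside the array values. Of 37 genes with a match in the promoter table, 12 had a probe set and 7 were tested, among them Hspa5, Hsp90b1 and Canx. Their median difference between 110 and 75 days in disease-free cord was 0.13, that of the 4 tested genes outside the list of 9 was 0.12, and that of all tested probe sets was -0.004. None was called. For 4 of the 7 genes both disease-free arrays at 110 days exceeded all 4 others: Hspa5, Hsp90b1, Dnajc3 and Adcy3, against 8.82% of all tested probe sets. Hspa5 and Hsp90b1 are counted above for the same pattern, and Dnajc3 and Adcy3 were named after their values were seen. Canx did not share the pattern, and Pdia3 and Xbp1 shared it without an exact match.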

How the data were processed

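The authors deposited 1 linear intensity per probe set and array, in a table of 12488 rows, and the 66 control rows were not tested. Per the labels' protocols, each array received biotin-labelled cRNA made from the poly(A) fraction of Trizol-extracted RNA of 4 cords, with 1 hybridisation and 1 scan. Probe summarisation and scaling are not given in the sources used here. Array medians differed by 1.04-fold, so intensities were used as deposited.

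Gene symbols came from the platform annotation (10833 probe sets with 1 symbol, 396 with several, 1193 with none here). A reference gene table matched 10817 of the first by Entrez identifier and altered 0 symbols. Values under 31, the 25th percentile, were raised to it before log2 was taken. Probe sets with at least 1 array over 79.7, the pooled median, were tested (6737).

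Differences were tested in R 4.3.3 with limma 3.58.1 (lmFit, eBayes, Benjamini-Hochberg at 0.05, two-sided) with 4 means: disease-free at each age and G93A-SOD1 at each age. Its residual and prior degrees of freedom were 2 and 5.13. The WT-SOD1 fit used 4 arrays and allowed for age; its residual degree of freedom was 1 and its prior infinite. SE is the moderated standard error. The fits were run on simulated arrays with independent noise and added log2 differences of 2, larger than those of the 8 genes. Smaller differences and properties shared between arrays were not simulated, so that run does not bear on the calls given here.

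The 9 genes, the lists and the alternatives were chosen with earlier results of these data known. Named beyond the 9 are pathway genes that were called, the lowest and highest of each list at 110 days, and the 3 genes most like Hspa5. Spike-in level is the mean of 9 bacterial control probe sets. Marker sums add the intensities of 1 probe set per gene. Promoter windows are RefSeq's (GRCm38.p6), matched by symbol for all 9 genes. Probe positions within transcripts were not used here. Alternatives were scaling to 1 median, quantile normalization, a floor at the 40th percentile (56.6), no filter, a spike-in term, nontransgenic controls only, leaving out each disease-free array, and other probe sets of a gene.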

Additional observations from a re-analysis of the deposited data

Results flagged for a closer look

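Hsp90b1 was the only member of the list whose G93A-SOD1 value went opposite ways at the 2 ages, above both disease-free arrays at 75 days and below both at 110 days. The change of its log2 difference was -0.60 ± 0.24, with an adjusted p of 0.758 in limma, so the reversal did not pass the test. The 75-day excess rests on a value of 565 against 496 and 460.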

How the results depend on the processing

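Of 341 log2 differences of the 8 genes under the alternatives, 303 kept the direction and side of the threshold, and 33 had the other sign, with the reported value within 1 SE of 0. In 4, all at 110 days and all without 1 disease-free 110-day array, a gene was called that was not called otherwise. The 1 reversal was Pdia3 in G93A-SOD1 cord at 110 days, 0.056 with nontransgenic controls only, whose mean includes the low 75-day array by construction. Called members at 110 days ranged from 0 to 2 with 1 array left out.

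Counts of called probe sets moved more. At 110 days they were 66 with the higher floor, 42 without the filter, 225 with the spike-in term, 183 with nontransgenic controls only, and 148 to 591 with 1 array left out. At 75 days they were 50 without the filter, 185 with nontransgenic controls only and 13 to 116 with 1 array left out. The change between ages gave 2 with scaling to 1 median, 3 with the higher floor, 76 without the filter, 78 with the spike-in term and 51 to 135 with 1 array left out. For age in disease-free cord they were 0 without the filter, 3 with the spike-in term and 2 to 17 with 1 array left out. WT-SOD1 against nontransgenic gave 0 with scaling to 1 median, with the higher floor and without the filter. The cause was not tested. That comparison could not be fitted with a spike-in term or with an array left out, since no residual degrees of freedom remain. No scaling moved an array's median by more than 0.036 on the log2 scale. No paired analysis was possible because each genotype and age has 1 array and the labels carry no replicate numbers.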
